A study of Mus musculus with 4 samples.

Results

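The genes described here make up the sterol and fatty acid synthesis programme that is driven by the sterol regulatory element-binding proteins (SREBPs). They are 36 listed members: 7 enzymes of the mevalonate steps, 11 of the late sterol steps, 12 of fatty acid synthesis and its supply, and 6 in the regulator group. The sterol carrier Stard4 is counted among these 6. They were measured in Lgr5-high intestinal stem cells sorted from mice with and without Ifnar1, which encodes a subunit of the type I interferon receptor. Of the 36 members, 35 had a probe that passed the filter on dim signal, among 24865 genes tested in all. That total counts named genes and also array entries without a gene symbol. The members were listed with their difference between knockout and control already known, so that difference is given as a description and without a test.

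Both groups carried the Lgr5-EGFP-Ires-CreERT2 knock-in, which marks the sorted cells. Control mice (Lgr5ki) had no other allele named, and knockout mice were Ifnar1-/- as well, a genotype of the whole animal and not of the stem cells alone. All animals were dosed with poly(I:C), which mimics viral double-stranded RNA and so induces interferon, at 2 mg/kg body weight into the peritoneum daily for 1 week. No untreated group was analysed here, and the sources used here give no age for the animals. Each group had 2 samples, each on its own single-colour array. Samples with the same replicate number shared a scan, so replicate 1 and replicate 2 were 2 separate scans with 1 control and 1 knockout each. The labels do not say that the samples came from separate animals, so the spread between them may be technical.

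Cells make cholesterol by condensing acetyl-CoA into mevalonate, joining the isoprenoid units made from it into squalene, and closing squalene into lanosterol, which late enzymes then trim to cholesterol. When sterols in the endoplasmic reticulum are scarce, SCAP escorts SREBPs to the Golgi, where they are cut and released to switch these genes on. When sterols are plentiful, INSIG proteins hold SCAP back. SREBP2 mainly drives sterol genes and SREBP1 mainly drives fatty acid genes. In the intestine this programme supplies the membranes of the rapidly dividing crypt. In macrophages, type I interferon signalling is known to lower sterol synthesis.

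Levels are given as log2 signal: the log2 of an array's background-corrected signal minus the 75th percentile of that array, so that 0 is the level of a fairly bright probe and 1 unit is a doubling. Levels of different genes were not set against each other, because probes differ in how well they bind. A fold is the antilog of the difference between group means. The 75th percentile lay between 229 and 245 intensity units on the 4 arrays, and 63.3% to 67.7% of non-control spots were well above background. Ifnar1 itself was at -0.18 and -0.32 in controls 1 and 2 and at -1.72 and -2.23 in knockouts 1 and 2. The stem cell marker Lgr5 was at 3.08 and 2.87 in the controls and 3.36 and 2.98 in the knockouts.

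Most members had a higher signal without the receptor, by a small amount. The mean difference was above 0 for 30 of the 35 members and below 0 for 5, with a median of 0.26 (0.19 in replicate 1 and 0.29 in replicate 2) against 0.02 over all genes tested. In both replicate numbers 22 members were higher in the knockout, 3 were lower and 10 had opposite signs in the 2 numbers; over all genes 33.6% were higher and 27.4% lower in both. Both knockout levels lay above both control levels for 14 members and below them for 1, where 14.3% and 11.5% of all genes did so. The sterol steps carried this difference more evenly than the fatty acid steps, where 1 gene, Scd2, stood far from the others.

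Over all genes, limma called 0 genes (0%) higher and 0 (0%) lower between genotypes, and 1.03% and 1.71% had p under 0.05 before adjustment. With the replicate number as a block, limma called 0.0563% of all genes higher and 0.43% lower. No member's call in this contrast is used here, because the contrast served to list the members. Leaving out knockout 2 brought the median of the 35 members to 0.16, and correcting background by normexp also gave 0.16.

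**Figure D1:**
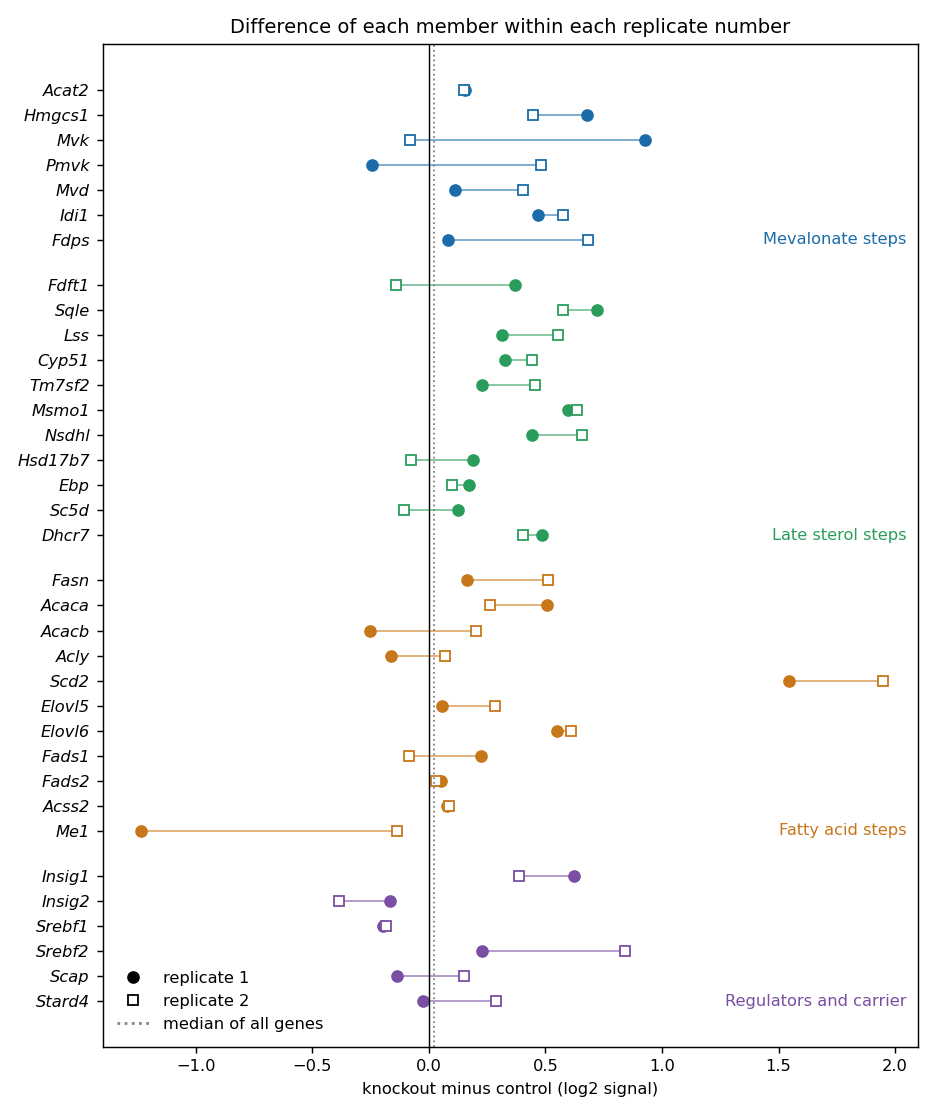
Knockout minus control (log2 signal, x axis) for each of the 35 measured members, grouped by step; filled circles are replicate 1, open squares replicate 2, and the dotted line is the median of all genes (0.02). Both points lie to the right of 0 for 22 members and to the left for 3 (Me1, Insig2 and Srebf1).

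The 7 mevalonate genes all had a mean above the control mean, with a median difference of 0.38 (0.15 in replicate 1 and 0.45 in replicate 2). Of these, 5 were higher in both replicate numbers, where 33.6% of all genes were. Both knockouts lay above both controls for 4, where 14.3% of all genes did so. The median was 0.24 without knockout 2. Acat2, the cytosolic thiolase that joins acetyl-CoA units, had a small difference, from 6.37 and 6.69 in controls 1 and 2 to 6.52 and 6.84 in knockouts 1 and 2. The groups overlapped, although the difference of 0.15 was the same in both replicate numbers to within 0.0032 (SD, n = 2). Without control 1 it was -0.0098.

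Hmgcs1, the synthase that makes HMG-CoA, had the highest difference of the mevalonate genes. Its levels were 2.51 and 2.67 in controls 1 and 2 and 3.19 and 3.12 in knockouts 1 and 2. Both knockout samples lay above both controls, and the mean was 1.48-fold higher (difference 0.56 ± 0.17, SD of the 2 replicate differences). Idi1, which isomerises the isoprenoid unit, was at 5.31 and 5.16 in the controls and 5.77 and 5.74 in the knockouts. The knockouts were again above both controls, 1.44-fold higher on average (0.52 ± 0.08, SD, n = 2), and the spread within each group was small beside the gap.

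The other mevalonate genes were less even. Fdps, which builds farnesyl pyrophosphate, was at 0.16 and -0.15 in the controls and 0.24 and 0.53 in the knockouts, so that nearly all of its difference came from replicate 2 (0.08 and 0.68); their mean of 0.38 was 0.24 without knockout 2 and 0.23 without control 2. Mvd, the decarboxylase, was at -0.02 and -0.11 in the controls and 0.09 and 0.29 in the knockouts, without overlap, and the difference of 0.26 was 0.15 without knockout 2. Mvk and Pmvk, the 2 kinases of the pathway, differed in sign between replicate numbers on their brightest probes. Mvk differed by 0.93 in replicate 1 and -0.08 in replicate 2, because control 1 was low at -1.13 beside 0.17 in control 2. Pmvk differed by -0.25 and 0.48. A second, dimmer probe of Mvk differed by -0.14 and 0.51, and that of Pmvk was higher by 0.16 and 0.59.

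The 11 late sterol genes also all had a mean above the control mean, and their median difference was 0.38 (0.33 in replicate 1 and 0.44 in replicate 2). Of them, 8 were higher in both replicate numbers (33.6% of all genes were) and 3 differed in sign. Both knockouts lay above both controls for 6, against 14.3% of all genes. With normexp background correction the median was 0.15.

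Sqle, the squalene epoxidase, had the highest difference. It was at 2.49 and 2.20 in controls 1 and 2 and at 3.21 and 2.78 in knockouts 1 and 2. The groups did not overlap, and the knockout mean was 1.57-fold higher (0.65 ± 0.10, SD, n = 2). Msmo1, which removes methyl groups from the sterol ring, was at 1.58 and 0.93 in the controls and at 2.18 and 1.56 in the knockouts. Here the groups just overlapped, since knockout 2 lay level with control 1, but within each scan the knockout was higher by nearly the same amount (0.60 and 0.63; 1.53-fold). Replicate 2 was lower than replicate 1 in both genotypes, and the mean difference of 0.62 was 0.29 without control 2, 0.31 without knockout 1 and 0.94 without control 1. That of Sqle was 0.43 without knockout 1.

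Nsdhl, a dehydrogenase that works with Msmo1, was at -0.83 and -1.44 in the controls and -0.39 and -0.78 in the knockouts (0.55 ± 0.15, SD, n = 2; 1.46-fold). The knockouts lay just above both controls. Dhcr7, which makes the last reduction to cholesterol, was at 0.64 and 0.30 in the controls and 1.13 and 0.71 in the knockouts (0.44 ± 0.06; 1.36-fold), without overlap. Lss, the cyclase that makes lanosterol, was dim, at -3.55 and -3.95 in the controls and -3.24 and -3.40 in the knockouts (1.35-fold), and its difference of 0.43 was 0.09 with normexp background correction and 0.23 without control 2. Cyp51, the lanosterol demethylase, was at -1.78 and -2.06 in the controls and -1.46 and -1.62 in the knockouts (1.31-fold). Its difference of 0.38 was 0.22 with normexp and 0.25 without control 2. Tm7sf2, a sterol reductase, was at -0.84 and -0.65 and then -0.61 and -0.20 (1.27-fold). Its difference of 0.34 was 0.06 with normexp, 0.22 with the mean of its kept probes, 0.13 without knockout 2 and 0.55 without knockout 1. These 5 genes had no overlap between groups. The difference of Nsdhl ran from 0.25 without control 2 to 0.85 without control 1, was 0.35 without knockout 1, and was 0.89 with the mean of its kept probes. That of Dhcr7 was 0.28 without control 2 and 0.24 without knockout 1.

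Ebp, the sterol isomerase, differed little (0.17 in replicate 1 and 0.10 in replicate 2), and its replicates were further apart than its groups. Fdft1, which makes squalene, differed by 0.37 and -0.14, Hsd17b7, a sterol ketoreductase, by 0.19 and -0.08 and Sc5d, a desaturase, by 0.12 and -0.10. These 3 are the late sterol genes whose sign differed, each on its brightest probe. For Fdft1 a second, dimmer probe was lower in the knockout by 0.82 on average, so its 2 probes lay on opposite sides of 0. For Hsd17b7 a second, dimmer probe was higher by 0.78 in replicate 1 and 0.45 in replicate 2. The mean over the kept probes of Hsd17b7 was 0.34.

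**Figure D2:**
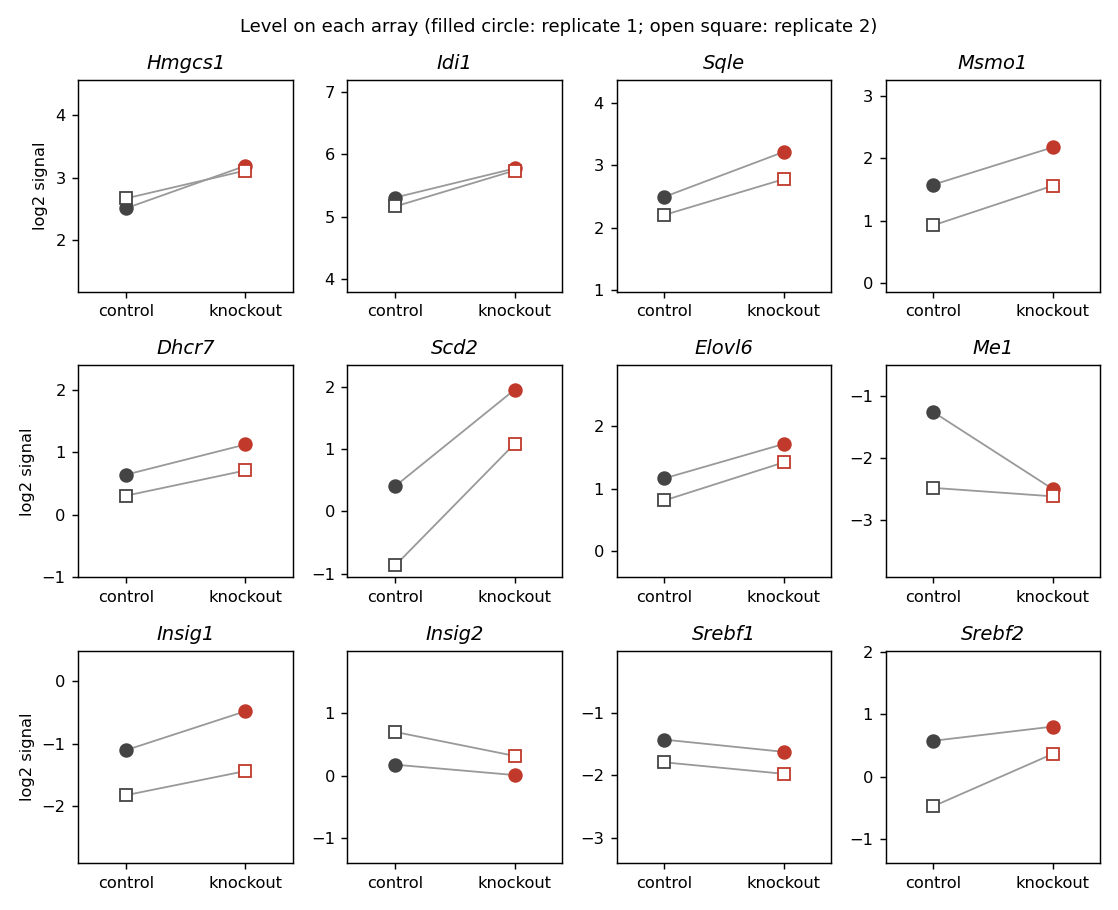
Level on each array (log2 signal, y axis; the panels have different centres and the same height in log2 units) of 12 members in control and knockout; filled circles are replicate 1, open squares replicate 2, and lines join samples of 1 replicate number. Lines for Hmgcs1, Idi1, Sqle, Msmo1, Dhcr7, Scd2 and Elovl6 slope up in both replicate numbers, while those for Insig2 and Srebf1 slope down slightly.

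Promoter sequence was examined because the sterol genes share regulators by textbook knowledge. SREBPs bind a sterol regulatory element, and they act together with NF-Y, which binds the CCAAT box, and Sp1, which binds GC boxes. RefSeq promoter windows of 250 bases before to 50 after the gene start (build GRCm38.p6) matched 29 of the 36 members. Scd1, Scd2, Fdps, Fdft1, Sqle, Fads1 and Stard4 had none in the table. Matches on either strand were counted per gene. The CCAAT box (CCAAT) was found in 24 of the 29 genes (82.8%) against 42.4% of 11808 array genes with a window. It was present in 9 of 9 late sterol genes, 5 of 6 mevalonate genes, 4 of 5 regulators and 6 of 9 fatty acid genes. A GC box (GGGCGG) was found in 23 of 29 (79.3%) against 61.2%, and an E-box (CACGTG) in 6 of 29 (20.7%) against 10.7%. The core of the sterol regulatory element (TCACNCCA) was found in 3 of 29 (10.3%) against 4.57%, namely in Hmgcs1, Msmo1 and Srebf2. The core of the interferon-stimulated response element was found in 1 of 29, Ebp (3.45% against 3.78%). The CCAAT box was as common in members outside the 22 that were higher in both replicate numbers (9 of 10) as in those with a window among them (15 of 19). A match of letters is not a bound site, and no binding was measured.

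Stretches before the gene start follow for the 3 genes with the element core and for 4 of the further sterol genes whose groups did not overlap. Mvd, Cyp51 and Tm7sf2 also had a CCAAT box and no overlap but are not printed. Mvk, Hsd17b7 and Ebp had CCAAT boxes too, and their groups overlapped. The printed stretches are read in the direction of the gene. Capitals mark the element core and the CCAAT box, which reads ATTGG where it lies on the opposite strand. Positions count back from the gene start, and the Dhcr7 stretch comes from 1 of its 3 windows.
Hmgcs1, chr13:119690101-119690330, plus strand, -250 to -21: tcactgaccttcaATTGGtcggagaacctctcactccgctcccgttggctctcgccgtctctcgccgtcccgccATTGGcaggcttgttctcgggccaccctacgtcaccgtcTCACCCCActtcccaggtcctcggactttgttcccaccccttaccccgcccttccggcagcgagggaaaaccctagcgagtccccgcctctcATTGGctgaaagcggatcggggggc
Msmo1, chr8:64733609-64733775, minus strand, -197 to -31: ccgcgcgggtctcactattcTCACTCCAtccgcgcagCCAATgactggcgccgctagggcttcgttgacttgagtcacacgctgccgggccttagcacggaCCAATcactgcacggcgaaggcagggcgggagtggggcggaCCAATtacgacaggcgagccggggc
Srebf2, chr15:82147087-82147158, plus strand, -182 to -111: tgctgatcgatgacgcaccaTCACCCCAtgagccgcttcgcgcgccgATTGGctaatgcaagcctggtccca
Idi1, chr13:8885541-8885605, plus strand, -65 to -1: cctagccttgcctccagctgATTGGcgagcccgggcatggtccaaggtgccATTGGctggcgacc
Lss, chr10:76531523-76531567, plus strand, -82 to -38: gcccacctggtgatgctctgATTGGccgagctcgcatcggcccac
Nsdhl, chrX:72918392-72918520, plus strand, -129 to -1: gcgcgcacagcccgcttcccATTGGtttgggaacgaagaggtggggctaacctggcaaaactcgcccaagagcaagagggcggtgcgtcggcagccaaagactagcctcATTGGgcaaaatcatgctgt
Dhcr7, chr7:143830109-143830189, plus strand, -105 to -25: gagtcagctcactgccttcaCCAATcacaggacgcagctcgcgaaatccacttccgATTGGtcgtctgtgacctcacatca
In Hmgcs1, Msmo1 and Srebf2 the element core stands at -137, -177 and -162, each with a CCAAT box within the printed stretch. The other 4 stretches hold 1 or 2 CCAAT boxes and no element core.

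Fatty acid genes differed less as a group and more among themselves. Of 11 measured, 7 were higher in both replicate numbers, 1 was lower and 3 differed in sign, with a median difference of 0.08 (0.08 in replicate 1 and 0.20 in replicate 2). Groups did not overlap for 4 genes above the control and 1 below it, where 14.3% and 11.5% of all genes did so. The shares of all genes higher and lower in both replicate numbers were 33.6% and 27.4%. The median ran from 0.04 to 0.13 over the processing settings and with each array left out.

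Scd2, which introduces the first double bond into saturated fatty acids, had the highest difference of all members. It was at 0.41 and -0.87 in controls 1 and 2 and at 1.95 and 1.08 in knockouts 1 and 2. Both knockouts lay above both controls even though replicate 2 was lower than replicate 1 in each genotype. The knockout mean was 3.36-fold higher (difference 1.75 ± 0.29, SD of the 2 replicate differences), which placed Scd2 at rank 60 from the highest of 24865 genes. The difference was 1.11 without control 2 and 2.38 without control 1. Scd1, its close relative, had 1 probe that was well above background on 0 of the 4 arrays, so no fold is given.

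Elovl6, which lengthens palmitate to stearate, was at 1.16 and 0.81 in the controls and 1.72 and 1.42 in the knockouts (0.58 ± 0.04, SD, n = 2). The knockouts lay above both controls, by about the same amount in each replicate number. The difference of Elovl6 was 0.40 without control 2, 0.43 without knockout 1, 0.73 without knockout 2 and 0.76 without control 1. Acaca, the carboxylase that makes malonyl-CoA for synthesis, was at 0.12 and 0.15 in the controls and 0.63 and 0.41 in the knockouts (1.31-fold), also without overlap. Of its 2 other kept probes, 1 was higher by 0.22 and 1 lower by 0.26 on average, so its probes disagreed, and the mean over all of them was 0.12. Fasn, the synthase itself, was dim, at -3.80 and -3.25 in the controls and -3.63 and -2.74 in the knockouts, with overlap, and its mean difference of 0.34 was -0.11 without knockout 2. Elovl5, an elongase of polyunsaturated fatty acids, was higher by 0.06 and 0.28.

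A further 5 fatty acid genes had mean differences from -0.05 to 0.08. Acss2, which makes acetyl-CoA from acetate, differed by 0.08 and 0.09, and the desaturase Fads2 by 0.05 and 0.03. Fads1, another desaturase, differed by 0.22 and -0.09. Acly, which makes cytosolic acetyl-CoA from citrate, differed by -0.16 and 0.07. Acacb, the carboxylase linked to control of fatty acid oxidation, differed by -0.25 and 0.20.

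Me1, the malic enzyme that supplies NADPH for fatty acid synthesis, was the member with the lowest difference. It was at -1.27 and -2.48 in controls 1 and 2 and at -2.50 and -2.62 in knockouts 1 and 2. Only control 1 stood apart, so the 2 replicate differences were unequal (-1.23 and -0.14; mean -0.68 ± 0.78, SD). Without control 1 the difference was -0.08, without control 2 it was -1.29, and with normexp it was -0.32. Its 2 other kept probes were lower in the knockout by 0.95 and 0.71 on average, and the first of them was lower by 0.95 in each replicate number.

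The regulators lay on both sides of 0. The 6 genes had a median difference of 0.07 (-0.08 in replicate 1 and 0.22 in replicate 2), with 2 higher in both replicate numbers, 2 lower and 2 that differed in sign. Among all genes 33.6% were higher and 27.4% lower in both replicate numbers. None of the 6 regulators had groups without overlap. Srebf2, which encodes SREBP2, was at 0.57 and -0.48 in controls 1 and 2 and at 0.80 and 0.36 in knockouts 1 and 2. Its difference was 0.23 in replicate 1 and 0.84 in replicate 2 (1.45-fold), and a second probe differed by 0.02 on average, so the size depends on the probe. Without control 2 the difference of 0.53 was 0.0083, without knockout 1 it was 0.31, and without control 1 it was 1.06. Srebf1, which encodes SREBP1, was at -1.43 and -1.79 in the controls and -1.62 and -1.97 in the knockouts, lower by 0.20 and 0.18 on the log2 scale in replicates 1 and 2 (differences of -0.20 and -0.18). The mean of -0.19 was -0.0083 without control 1, -0.01 without knockout 2 and -0.07 with normexp.

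Insig1 and Insig2, the retention proteins, differed in opposite directions. Insig1, which is itself an SREBP target, was at -1.10 and -1.82 in the controls and -0.48 and -1.44 in the knockouts (0.62 in replicate 1 and 0.39 in replicate 2; 1.42-fold). Its difference was 0.03 without knockout 1, 0.14 without control 2, 0.87 without control 1 and 0.98 without knockout 2, and 0.32 with normexp. Insig2 was at 0.17 and 0.70 in the controls and 0.01 and 0.32 in the knockouts (-0.17 and -0.38), and its second probe was lower as well (-0.28 and -0.52). The mean of its first probe was -0.01 without control 2, -0.12 without knockout 1, -0.43 without knockout 2 and -0.54 without control 1. In both Insig genes the groups overlapped, since the replicates lay further apart than the genotypes. Scap, the escort, differed by -0.14 and 0.15. Stard4, a cytosolic sterol carrier and SREBP target, differed by -0.02 and 0.29, while its dimmer probe was higher by 0.68 on average.

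Genes next to the programme were examined as lists, beside 33.6% of all genes higher and 27.4% lower in both replicate numbers. Of 20 measured further sterol synthesis and SREBP-related genes, 13 were higher in both replicate numbers and 2 lower, with a median difference of 0.17 (0.22 and 0.15), and limma called 0 of them between genotypes in either direction, with or without the replicate block (without it, 0 had an unadjusted p below 0.05). Lpin1, a phosphatidate phosphatase, was the lowest of this list in the mean (0.32 and -1.81) and was well above background on 3 of the 4 arrays.

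Genes of sterol uptake, storage and export formed another list. Of 16 measured, 8 were higher in both replicate numbers and 1 lower, with a median of 0.15 (0.16 and 0.07). Nr1h3, which encodes the sterol sensor LXR alpha, differed by 0.15 and 0.16. Its target Abca1, a cholesterol exporter, differed by 1.46 and -0.47. The highest of the list was Scarb1, a lipoprotein receptor (1.41 and -0.13), and the lowest Cyp27a1, a sterol hydroxylase (-0.34 and -0.78); both were well above background on 3 of the 4 arrays. Ch25h, the interferon-induced enzyme that makes 25-hydroxycholesterol, was well above background on 0 arrays.

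Glycerolipid synthesis and fatty acid oxidation had medians of 0.02 each, as all genes did. Within replicates 1 and 2 the medians were -0.08 and -0.06 for glycerolipid synthesis and 0.03 and 0.01 for oxidation. Of 10 glycerolipid genes 2 were higher and 3 lower in both replicate numbers, from Lpin2 at -0.48 to Mogat2 at 0.33. Of 14 oxidation genes 7 were higher and 5 lower. Acadl, a dehydrogenase of long-chain acyl-CoA, was at 4.19 and 4.04 in the controls and 3.78 and 3.55 in the knockouts, without overlap. Ppara, the nuclear receptor that drives oxidation genes, was at 0.66 and 1.43 in the controls and 1.37 and 2.09 in the knockouts (0.71 and 0.66), and it was higher in the knockout within each scan.

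**Figure D3:**
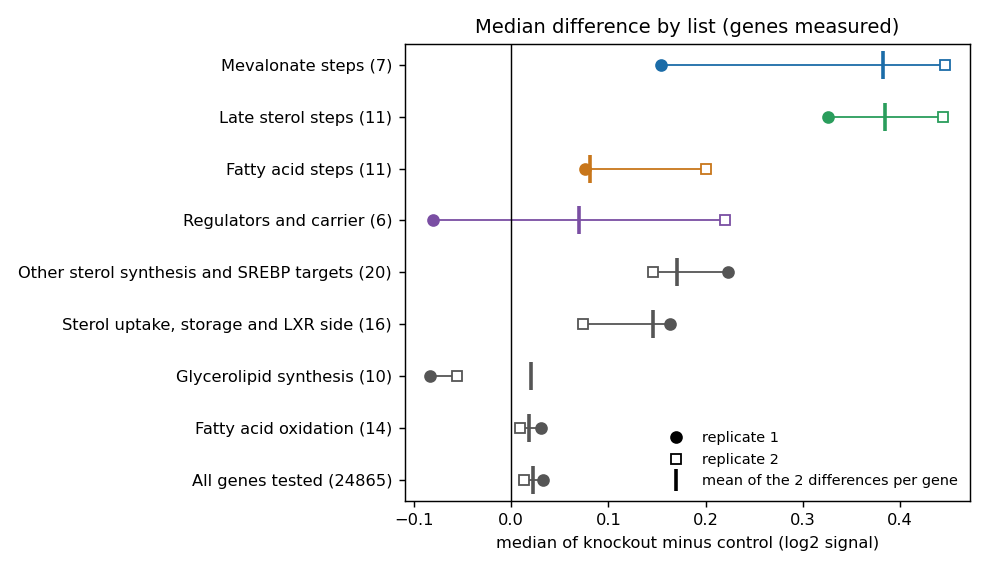
Median of knockout minus control (log2 signal, x axis) for the 4 member groups, 4 neighbouring lists and all genes, with the number of genes measured in brackets. Circles are replicate 1, squares replicate 2, and bars the median of each gene's mean difference; the mevalonate and late sterol bars both stand at 0.38 and that of all genes at 0.02.

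Other features of the samples differed between genotypes as well. Of 10 interferon-stimulated genes, 10 were lower in the knockout in both replicate numbers, with a median difference of -3.60 and the lowest value in Ifit3, at -4.51. Paneth cell markers were lower too: 6 of 6 measured were lower in both replicate numbers, and their summed signal, in multiples of the array's 75th percentile, was 427 and 566 in the controls and 113 and 180.2 in the knockouts (Lyz1, the Paneth lysozyme, 5.52 and 6.02 against 3.25 and 4.26 in log2 signal). Of 8 enterocyte markers 6 were higher and 2 lower in both, with sums of 5.73 and 6.62 in the controls and 5.83 and 7.12 in the knockouts. The median difference of these enterocyte markers was 0.37 (0.26 and 0.24), and the highest was Alpi, an alkaline phosphatase chosen after its values were seen, at 1.14. Of 6 enteroendocrine markers 5 were lower and 1 higher, with sums of 8.43 and 12.8 against 4.80 and 7.57. Of 6 goblet markers 2 were lower in both replicate numbers without overlap and 4 differed in sign, with a median of -0.29 (-0.68 and 0.10) and sums of 139 and 143 against 107 and 149. The 2 lower ones, chosen after their values were seen, were Spink4 (mean difference -1.55) and the mucin Muc2 (-0.88). In the mean, 4 of the 6 goblet markers were lower and 2 higher. The highest, likewise chosen after its values were seen, was Clca1 at 0.66 (-0.0033 in replicate 1 and 1.33 in replicate 2). Tuft markers summed to 1.98 and 2.38 against 1.94 and 2.66, immune markers to 214 and 343 against 212 and 339, and stem cell markers to 99.8 and 111 against 102 and 111. Of 5 stromal markers, Col1a1, Pdgfra, Pecam1 and Vim did not pass the filter. Col3a1 was higher in the knockout by 0.91 and 0.98. It was dim, at -3.71 and -3.89 in the controls and -2.80 and -2.91 in the knockouts, so its difference is limited by signal over background. In sorted bulk samples fewer cells of a type and less RNA per cell cannot be told apart. With the replicate block limma called 7 of the 10 interferon-stimulated genes and 6 of the 6 Paneth markers lower, and without it 0 (9 and 6 had p below 0.05 before adjustment). Of the 7, Ifit1 was well above background on 2 of the 4 arrays and passed the filter through the controls alone. Its knockout levels (-5.50 and -6.83) were not well above background, so nothing is read from its call or the size of its difference. The part of these shifts in the differences of the sterol genes was not tested.

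How the members varied between replicate numbers is a contrast that did not serve to choose them, and it was tested over all genes. Each replicate number holds 1 control and 1 knockout. Limma called 0 of the 35 members higher and 0 lower in replicate 2, where 4.93% of all genes were called higher and 3.88% lower. With p under 0.05 before adjustment, 3 members were higher and 3 lower, where 19.5% and 10.8% of all genes were, and the smallest adjusted p was that of Ebp (0.50 ± 0.12, SE; limma, adjusted p = 0.0625). The members' median was -0.09 against 0.11 for all genes, and 21 of 35 were lower in replicate 2. Among the late sterol genes 8 of 11 were lower, with a median of -0.28, while 5 of 7 mevalonate genes were higher, with a median of 0.06.

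With the group as a further term, limma called 6 members between replicate numbers, where 12.9% of all genes were called higher and 7.04% lower. Acat2 (0.32 ± 0.06, SE; limma, adjusted p = 0.0264) and Ebp (adjusted p = 0.0219) were higher in replicate 2. Scd2 was lower by 1.27 in the control and 0.87 in the knockout (differences of -1.27 and -0.87; limma, adjusted p = 0.0109), and Msmo1 by nearly the same amount in both (-0.65 and -0.62; adjusted p = 0.0165). Insig1 (-0.72 and -0.96; limma, adjusted p = 0.0313) and Srebf2 (-1.05 and -0.44; adjusted p = 0.0429) were lower too. Without the intensity trend in the variance, limma called 0 members and 0 genes in either fit. For Scd2 the mean difference between genotypes (1.75) exceeded in size that between replicate numbers (-1.07). For Insig1 and Srebf2 the difference between replicate numbers (-0.84 and -0.74) was larger in size than the genotype difference (0.50 and 0.53). Replicate numbers differ in sample as well as in scan, and these cannot be told apart.

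Across the 35 members, the difference between controls 1 and 2 and that between knockouts 1 and 2 had a Pearson r of 0.68 (0.56 across all genes). This is a correlation across genes on 4 arrays, and genes are not independent replicates.

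**Figure D4:**
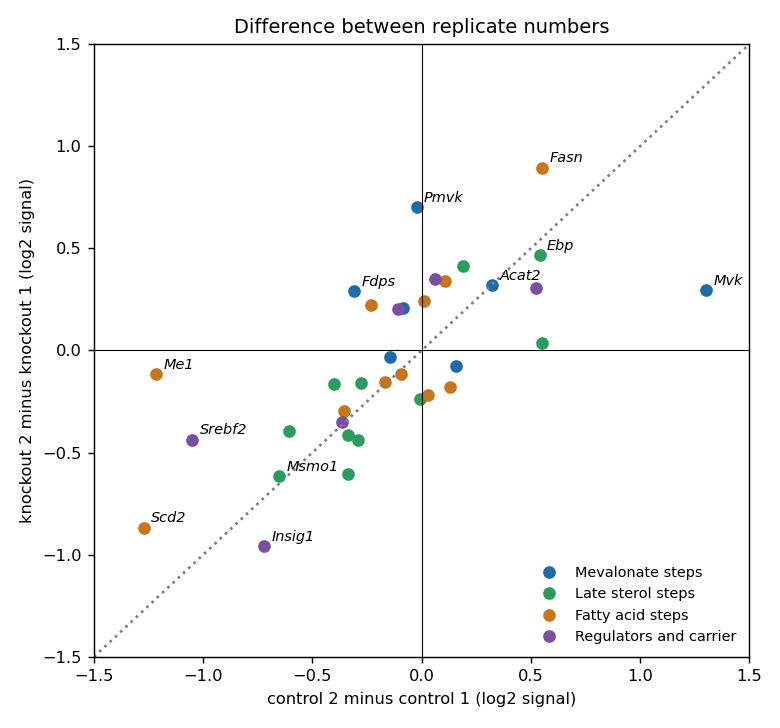
Replicate 2 minus replicate 1 in log2 signal, in the controls (x axis) and in the knockouts (y axis), for the 35 measured members coloured by step; the dotted line marks equal differences. Scd2, Insig1, Srebf2 and Msmo1 lie to the lower left, Fasn, Ebp and Acat2 to the upper right, and Mvk (1.30 in the controls, 0.30 in the knockouts) and Me1 (-1.22 and -0.12) lie far from the line.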

How the data were processed

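Sorted cells gave total RNA that was amplified and labelled with Cy3, per the labels' protocols. The authors deposited scanner files of linear spot intensity, already corrected for background. Feature Extraction 12.0.3.1 from Agilent wrote them, per the file headers (11.5.1.1 in the submitters' processing notes). The authors' series table, an alternative, held the same intensity times 1 constant per array (5.60 to 6.68), without centring between genes. Its column medians ran from 223 to 249, and the target of its scaling is unknown.

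Of 55681 probes, 35422 cleared the scanner's well-above-background mark in both samples of a group. Outlier-flagged spots (111 to 172 per array) were left out, and 0 spots were saturated. Deposited values were taken to log2, averaged over spots of a probe, and reduced by the array's 75th percentile. Accessions were matched to the RefSeq table of GRCm38.p6, which named 28331 probes. A gene is its brightest probe over the 4 arrays, which gave 24866 genes, 1 with a missing value left out. Of these, 14803 carried a gene symbol, and the others were kept under the array's own identifier. Shares, medians and ranks over all genes cover both kinds. Limma 3.58.1 in R 4.3.3 (moderated variance with intensity trend, Benjamini-Hochberg adjusted p under 0.05 over all genes) was tested on simulated data. The simulated variances were drawn from the intensity trend that the fit itself assumes, so that assumption was not tested. The number of arrays limits the precision.

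The members, lists and rule for named genes were chosen with earlier results of these data known. All members are named, with the lowest and highest of each neighbouring list, a few fixed sterol genes, Ifnar1, Lgr5 and Lyz1; some genes this rule names are not reported here. Numbers pair the samples, since each number was 1 scan per the file headers: the deviations of the 2 controls and of the 2 knockouts from their group means correlated across all genes (r = 0.56).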

Additional observations from a re-analysis of the deposited data

How the results depend on the processing

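With the replicate number as a block, the genes called between genotypes by limma were 14 higher and 107 lower in place of 0 and 0. Calls of members are not given, because the members were listed on this contrast. Without the intensity trend (a choice made after seeing the data) this block called 0 genes. Between replicate numbers the block on the group raised the calls from 1225 genes higher and 965 lower to 3220 and 1751, and those of members from 0 and 0 to 2 higher and 4 lower. These counts were 3020 and 1828 at an adjusted p under 0.1 (1 member higher), 745 and 587 with the mean of all kept probes, 543 higher with the authors' table, 615 higher with quantile scaling, and 0 and 0 without the intensity trend; with each array left out they ran from 0 to 1242 higher and from 1 to 803 lower, and 0 to 1 member in each direction. Between genotypes, leaving out each array gave 0 to 9 genes higher and 18 to 145 lower (without control 1 there were 18 lower, leaving out control 2 gave 70, leaving out knockout 1 gave 47 and leaving out knockout 2 gave 145), with 0 members. The cause was not tested.

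The median difference of the members stayed above 0 in every setting and was 0.16 with normexp background correction; with each array left out it ran from 0.16 to 0.30. The late sterol median was 0.15 with normexp and ran from 0.28 to 0.52 with each array left out. The fatty acid and regulator medians ran from 0.04 to 0.13 and from 0.0087 to 0.14. Of 35 members, 30 kept their sign under the 8 processing settings, and 21 also with each array left out. Dim members such as Lss and Fasn are limited by their signal over background.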
